A study of Mus musculus with 4 samples.

Results

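The Skint genes encode a family of butyrophilin-like membrane proteins of mouse keratinocytes, the cells that form the epidermis. The members described here are the 10 genes of the deposited table named Skint1, Skint2, Skint3, Skint4, Skint5, Skint6, Skint7, Skint9, Skint10 and Skint11, out of 56953 genes in all. They were chosen by name with results of the comparison below already known, so every value of that comparison is given for them as a description and none as a test. Skint8 was left out of the family by that choice because it had few reads. It held 10, 9, 0 and 0 counts in the order DMSO replicates 1 and 2, then NEDD8i replicates 1 and 2. The least counted member, Skint2, held 51, 13, 12 and 9.

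Skint proteins carry several membrane-spanning segments and, outside the cell, immunoglobulin-like domains related to those of butyrophilins. Some butyrophilins and butyrophilin-like proteins act on gamma delta T cells. Skint1, made by thymic epithelium and by keratinocytes, is required for the selection of the dendritic epidermal T cells, gamma delta T cells that live between keratinocytes in mouse skin and respond to wounds and stressed neighbours. Skint3 and Skint9 have been linked to signalling from keratinocytes to these T cells during wound repair.

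The samples were skin of wild type C57BL/6J mice whose backs were treated topically for 3 days, with 2 libraries of DMSO, the solvent control, and 2 of NEDD8i at 10 µM. NEDD8i is known here only by that label, which refers to the ubiquitin-like protein NEDD8. Age, sex and number of mice are not given in the sources used here, nor is whether replicates were separate mice, so the spread between libraries may be technical. The libraries tag the 3′ end of polyadenylated transcripts. The protocol text names full-thickness skin and, at the extraction step, cells. Keratinocyte transcripts were abundant, with the basal layer keratins Krt14 between 1040 and 2560 and Krt5 between 624 and 1630 CPM (counts per 1000000, scaled by the TMM factors of edgeR). The 8 endothelial markers looked at summed to 15, 6, 20 and 20 counts in library order (DMSO replicates 1 and 2, then NEDD8i replicates 1 and 2, kept throughout), so endothelium of the labelled full-thickness skin was nearly absent. Of the dermal fibroblast markers, Postn was present in all libraries (176, 352, 480 and 625 counts), whereas collagen genes were sparse in DMSO, with Col1a1 at 15, 10, 24 and 119 counts and Col3a1 at 7, 2, 19 and 83. Collagen counts were thus few in DMSO and higher after NEDD8i, opposite to the Skint genes, while Dcn (345, 9, 135 and 173) overlapped. The part of dermal content in the results was not tested.

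Total counts ran from 5639791 to 8856572 per library, of which 52.6% to 61.7% fell on 3 ribosomal RNA genes. DMSO replicate 1 stood apart in hair follicle transcripts. The 17 anagen hair follicle genes in the table summed to 7320 CPM there, against 28.1 in DMSO replicate 2 and 23.8 and 452 in NEDD8i replicates 1 and 2, led by Tchh (trichohyalin of the inner root sheath) and the root sheath keratin Krt25. Its part in the results below was not tested.

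The family occupies 1 cluster on chromosome 4, spanning 2.33 Mb from position 111776595 at the start of Skint8 to 114102225 at the end of Skint11 in the deposited coordinates, taken to be GRCm39. From the first position the order is Skint8, Skint7, Skint1, Skint4, Skint3, Skint9, Skint2, Skint10, Skint6, Skint5 and Skint11. Skint9, Skint10, Skint6 and Skint5 lie on the minus strand and the others on the plus strand. Skint7 is the most compact member, spanning 15.3 kb (111830120 to 111845420), whereas Skint6 and Skint5 span 479 and 522 kb and hold 48 and 59 separate exons in the deposited table. Other members hold between 7 and 12.

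The promoter sequences of 5 genes are shown because these genes mark the extremes of the comparison. Skint7 and Skint8 had the lowest levels after NEDD8i relative to DMSO, and Skint11, whose level barely differed, is the relative of Skint9 and Skint10, which were lower. All 11 Skint genes, Skint8 included, matched the RefSeq promoter table by symbol (build GRCm38.p6, so these coordinates are not those of the deposited table). Each sequence is the 250 bases before the annotated start, 5′ to 3′ on the strand of the gene. In Skint7 (chr4:111972677-111972926, plus strand) and Skint8 (chr4:111919305-111919554, plus strand) the capitals mark the longest run the pair shares, 51 bases.
Skint7: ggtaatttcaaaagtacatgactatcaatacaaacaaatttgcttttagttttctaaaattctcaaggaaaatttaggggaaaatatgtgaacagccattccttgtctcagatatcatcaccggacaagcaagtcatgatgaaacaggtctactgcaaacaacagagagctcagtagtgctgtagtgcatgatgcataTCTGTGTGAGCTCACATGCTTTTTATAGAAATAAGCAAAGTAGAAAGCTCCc
Skint8: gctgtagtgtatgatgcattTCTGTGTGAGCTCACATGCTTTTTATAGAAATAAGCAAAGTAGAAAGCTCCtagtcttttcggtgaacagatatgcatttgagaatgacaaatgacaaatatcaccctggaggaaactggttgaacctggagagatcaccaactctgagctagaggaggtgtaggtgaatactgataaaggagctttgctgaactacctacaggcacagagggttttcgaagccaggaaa
The shared run lies at bases -52 to -2 before the annotated start of Skint7 and at -230 to -180 before that of Skint8. It contains the sequence TTTATA, the reverse complement of TATAAA, the core of a TATA box. In Skint7 that match begins 31 bases before the start.

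In Skint9 (chr4:112433986-112434235, minus strand), Skint10 (chr4:112774862-112775111, minus strand) and Skint11 (chr4:114163134-114163383, plus strand) the capitals mark the single match of the family to TGANTCA, the AP-1 motif, found in Skint11, and the 7 bases of Skint9 and Skint10 aligned to it.
Skint9: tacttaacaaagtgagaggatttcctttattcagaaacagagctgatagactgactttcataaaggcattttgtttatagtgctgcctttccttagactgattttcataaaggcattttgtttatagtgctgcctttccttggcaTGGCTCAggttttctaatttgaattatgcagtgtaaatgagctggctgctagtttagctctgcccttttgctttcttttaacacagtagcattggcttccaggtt
Skint10: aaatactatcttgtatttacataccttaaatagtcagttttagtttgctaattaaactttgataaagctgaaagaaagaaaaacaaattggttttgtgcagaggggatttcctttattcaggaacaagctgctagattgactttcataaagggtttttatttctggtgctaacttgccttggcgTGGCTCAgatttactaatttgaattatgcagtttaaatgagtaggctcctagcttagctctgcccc
Skint11: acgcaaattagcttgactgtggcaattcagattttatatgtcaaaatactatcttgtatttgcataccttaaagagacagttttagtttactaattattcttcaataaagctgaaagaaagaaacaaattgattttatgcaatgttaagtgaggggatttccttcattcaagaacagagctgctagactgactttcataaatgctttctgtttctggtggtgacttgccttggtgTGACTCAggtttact
The aligned bases of both relatives differ from the Skint11 match by A3G, counted from 1 at the 5′ end of the match with the Skint11 base first. The match begins 15 bases before the annotated start of Skint11, and the aligned bases begin 105 and 66 bases before those of Skint9 and Skint10. A match of these letters is a description of the sequence, not evidence of binding.

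Over the same 250 bases of all 32851 promoters in the table, searched on both strands, TGANTCA was present in 6.75%, and in 1 of the 10 members. TATAAA was present in 12.4% of all promoters and in 6 of 10 members: Skint1, Skint2, Skint4, Skint7, Skint9 and Skint11. Only Skint1 held it on its own strand, and the others as the reverse complement TTTATA, at starts from -218 in Skint11 to -18 in Skint2. Members were counted per gene, over both annotated starts of Skint4, whereas the percentages are per promoter. CANNTG (the E-box, which can overlap the other motifs) occurred in 66.2% of all and in 7 of 10 members. The core recognised by GATA factors, searched as AGATAA, occurred in 9.99% and in 1 member, before the downstream of 2 annotated starts of Skint4. GGGNGTGG, bound by KLF factors, occurred in 15.9% and in no member. Promoters resembled each other most in Skint5 and Skint6, at 88.8% identity, followed by Skint10 and Skint11 at 70%.

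Coding sequences were compared in GENCODE M21 on GRCm38. Skint7 and Skint8 are the closest relatives, at 90.5% nucleotide identity over coding lengths of 1185 and 1194 bases. Skint9 and Skint10 share 78.1%, Skint10 and Skint11 75.6%, Skint5 and Skint6 74.9%, and Skint3 and Skint4 74.6%. Skint1 is closest to Skint2, at 70.1%. Because 3′ tags fall near transcript ends, the last 400 bases of each protein-coding transcript were cut into windows of 50 bases and looked for in the transcripts of all other genes. None of the windows of Skint1, Skint3, Skint5, Skint9 or Skint10 occurred elsewhere. Of the windows of Skint7, 1.71% occurred in another gene, Skint8 among them. Of those of Skint6, 6.78% occurred in Skint5, and of those of Skint11, 7.07% in the gene model Gm12813, which had 0 counts. Read length and the counting of reads that fit several genes are not given in the sources used here, so single values of near copies keep that uncertainty. No gene with counts shared exon bases with a Skint gene in the deposited coordinates.

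The comparison asks how the skin transcriptome differed after 3 days of topical NEDD8i. As a family the Skint transcripts were lower after NEDD8i. Their summed level was 179 and 245 CPM in DMSO replicates 1 and 2, and 80.1 and 84.1 CPM in NEDD8i replicates 1 and 2. Both NEDD8i libraries lay below both DMSO libraries, and the mean went from 212 ± 46.8 CPM to 82.1 ± 2.83 CPM (SD, n = 2 libraries each), 38.7% of the DMSO level. As a share of counts outside the 3 ribosomal RNA genes, the family took 0.0443% (exact 95% binomial interval 0.0419 to 0.0468) and 0.0591% (0.056 to 0.0624) in DMSO, against 0.0176% (0.0163 to 0.0191) and 0.0207% (0.0192 to 0.0223) after NEDD8i. These intervals cover counting error only. In bulk skin, fewer cells of a type and less RNA per cell cannot be told apart.

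All 10 members passed the filter on low counts. Skint2 and Skint7 reached its minimum of 1.35 CPM in both DMSO libraries but in only 1 NEDD8i library, so they passed through their DMSO values. Of the 10 members, 9 had a negative log2 fold change, where 50.1% of all 11388 genes tested did, and 8 had one of -1 or lower, against 10.2% of all genes. The exception to a negative sign was Skint11, which turned slightly negative (-0.13) with library sizes not scaled by TMM, a scaling that moved the median of all genes to -0.22. The median over members was -1.50, beside 0.00 over all genes tested. Both NEDD8i libraries lay below both DMSO libraries in 8 of 10 members, against 22.9% of all genes, the exceptions being Skint6 and Skint11. With the quasi-likelihood F test of edgeR and p-values adjusted by Benjamini-Hochberg over all genes at 0.05, 1 of 10 members passed as lower, Skint7, and 0 as higher, against 0.114% and 0.667% of all genes. At an unadjusted p under 0.05, 8 members were lower, against 7.86% of all genes. Because the family was chosen with this contrast known, nothing is read from these counts.

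**Figure D1:**
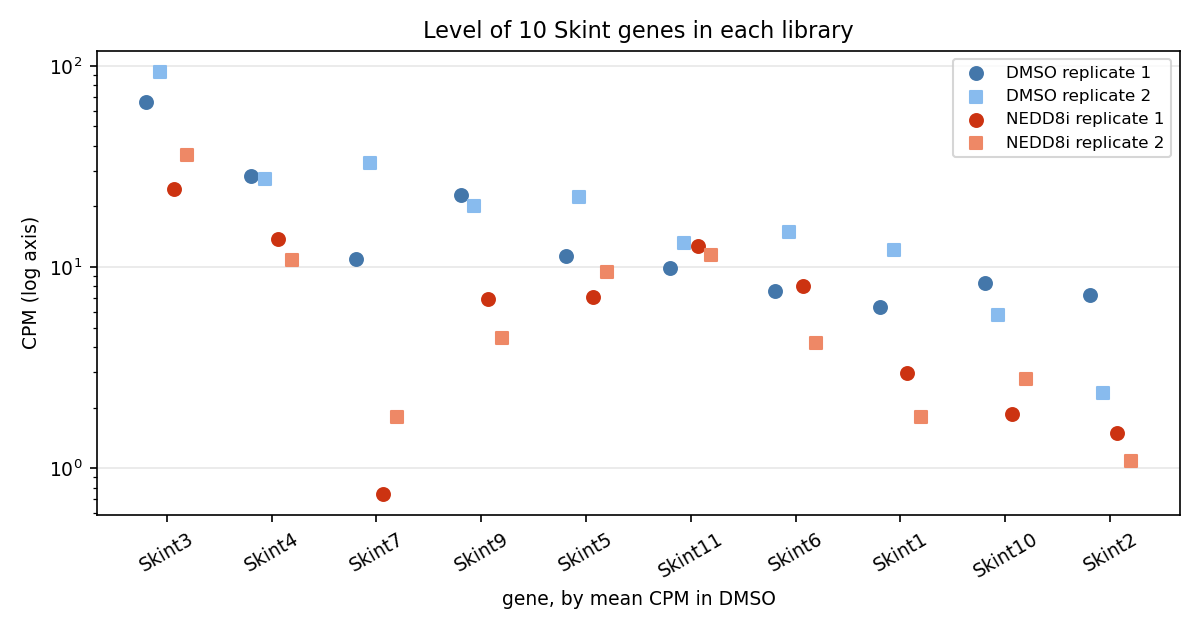
Level of each Skint gene in CPM (log axis) in the 4 libraries, genes ordered by their mean in DMSO; each point is 1 library. Skint7 has the widest gap between groups, at 10.9 and 33.1 CPM in DMSO against 0.745 and 1.8 after NEDD8i, while the points of Skint11 lie together between 9.86 and 13.2 CPM.

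Skint1, the member required for selection of epidermal T cells, was counted 44 and 67 times in the DMSO libraries and 24 and 15 times in the NEDD8i libraries. On the CPM scale these were 6.29 and 12.1 against 2.98 and 1.8, so the groups did not overlap, although the DMSO libraries differed from each other by more than the lower of them did from NEDD8i replicate 1. The log2 fold change was -1.93 (SE 0.52), which ranged from -2.35 without DMSO replicate 1 to -1.37 without DMSO replicate 2.

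Skint3 was the most abundant member in every library. It was read 461 and 516 times with DMSO and 197 and 301 times with NEDD8i, that is 65.9 and 93.5 CPM against 24.5 and 36.2 CPM. The highest NEDD8i library was well under the lowest DMSO library, with a log2 fold change of -1.39 (SE 0.33), which was -1.63 without DMSO replicate 1 and -1.10 without DMSO replicate 2. Skint9, like Skint3 linked to wound signalling, held 160 and 111 counts under DMSO and 56 and 37 under NEDD8i. Its DMSO libraries were close, at 21.5 ± 1.95 CPM, and NEDD8i stood at 5.7 ± 1.77 CPM (SD, n = 2 each). The log2 fold change was -1.91 (SE 0.38). The members with over 100 counts in each DMSO library were Skint3, Skint4 and Skint9. Of these, Skint9 had the lowest percentage left, 26.5% of the DMSO mean. Outside that cut, Skint7 and Skint1 stood lower, at 5.79% and 26%. Skint3 kept 38%.

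Skint7 showed the largest difference of the family. It was counted 76 and 183 times in the DMSO libraries and 6 and 15 times in the NEDD8i libraries, or 10.9 and 33.1 CPM against 0.745 and 1.8 CPM. The NEDD8i libraries were far below both DMSO libraries even though the latter differed between themselves, at a ratio of replicate 1 to replicate 2 of 0.328. NEDD8i stood at 5.79% of the DMSO mean, a log2 fold change of -4.08 (SE 0.66), the 47th lowest of 11388 genes tested. Skint7 passed the filter through its DMSO values, so this rank is a description only. Its NEDD8i counts, 6 and 15, had exact 95% Poisson intervals of 2.2 to 13.1 and 8.4 to 24.7. The log2 fold change stayed between -4.86 and -3.05 when each library was left out, and Skint7 no longer passed the threshold without NEDD8i replicate 1 (-3.58), without NEDD8i replicate 2 (-4.86) or with limma-voom (-3.91). Skint8, its closest relative and not a member, was at 1.43 and 1.63 CPM in DMSO and had no count in either NEDD8i library. With a floor of 3 counts over the NEDD8i group and the DMSO counts taken as exact, Skint8 was 8.29-fold lower. Those DMSO counts, 10 and 9, had exact 95% Poisson intervals of 4.8 to 18.4 and 4.12 to 17.1, so a smaller fold is possible. Skint8 reached the filter minimum in the DMSO libraries only and did not pass the threshold. The pair adjoin each other at one end of the cluster and share the promoter run shown above.

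Skint4, which neighbours Skint3 and is its closest relative in coding sequence, had the steadiest DMSO values. It was read 199 and 152 times with DMSO and 111 and 90 times with NEDD8i, with CPM of 28.4 and 27.5 against 13.8 and 10.8. The groups were clearly separate, and the log2 fold change was -1.19 (SE 0.32). Skint10 held 58 and 32 counts under DMSO and 15 and 23 under NEDD8i, or 8.29 and 5.8 CPM against 1.86 and 2.76 CPM. Its groups did not overlap either, and its log2 fold change was -1.60 (SE 0.50). Skint2, reported elsewhere as the T cell inhibitory molecule B7S3, was the least abundant member in DMSO. Its CPM were 7.29 and 2.35 under DMSO against 1.49 and 1.08, so its difference rested mostly on DMSO replicate 1. The log2 fold change of Skint2 was -1.91 (SE 0.69), and -0.88 without that library.

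The large genes Skint5 and Skint6 differed less. Skint5 was counted 80 and 123 times in the DMSO libraries and 57 and 79 times in the NEDD8i libraries, or 11.4 and 22.3 CPM against 7.08 and 9.49 CPM, with no overlap and a log2 fold change of -1.02 (SE 0.42). Skint6 was read 53 and 83 times with DMSO and 65 and 35 times with NEDD8i. Its CPM were 7.57 and 15 against 8.07 and 4.2, so DMSO replicate 1 fell between the NEDD8i libraries, and the log2 fold change was -0.87 (SE 0.49). Both genes depended on DMSO replicate 2, where they were highest. Without it their log2 fold changes were -0.44 and -0.29, and without DMSO replicate 1 they were -1.43 and -1.30.

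Skint11, at the far end of the cluster, had the smallest difference, and like Skint6 its groups overlapped. It held 69 and 73 counts under DMSO and 102 and 96 under NEDD8i, which at the larger size of the NEDD8i libraries were 9.86 and 13.2 CPM against 12.7 and 11.5 CPM. The DMSO libraries enclosed both NEDD8i libraries. The log2 fold change was 0.07 (SE 0.36), and the estimate ran from -0.14 without DMSO replicate 1 to 0.31 without DMSO replicate 2. This does not show that Skint11 was unchanged, since the error allows a difference in either direction.

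The make-up of the family's counts differed as well. Skint11 held 5.52% and 5.4% of Skint counts in the DMSO libraries and 15.8% and 13.7% after NEDD8i. Skint7 went the other way, from 6.08% and 13.5% to 0.93% and 2.14%. Skint3 remained the largest component in all libraries, between 30.5% and 43%, with its DMSO shares (36.9% and 38.1%) inside the range of its NEDD8i shares. Shares of one sum are not independent of one another.

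**Figure D2:**
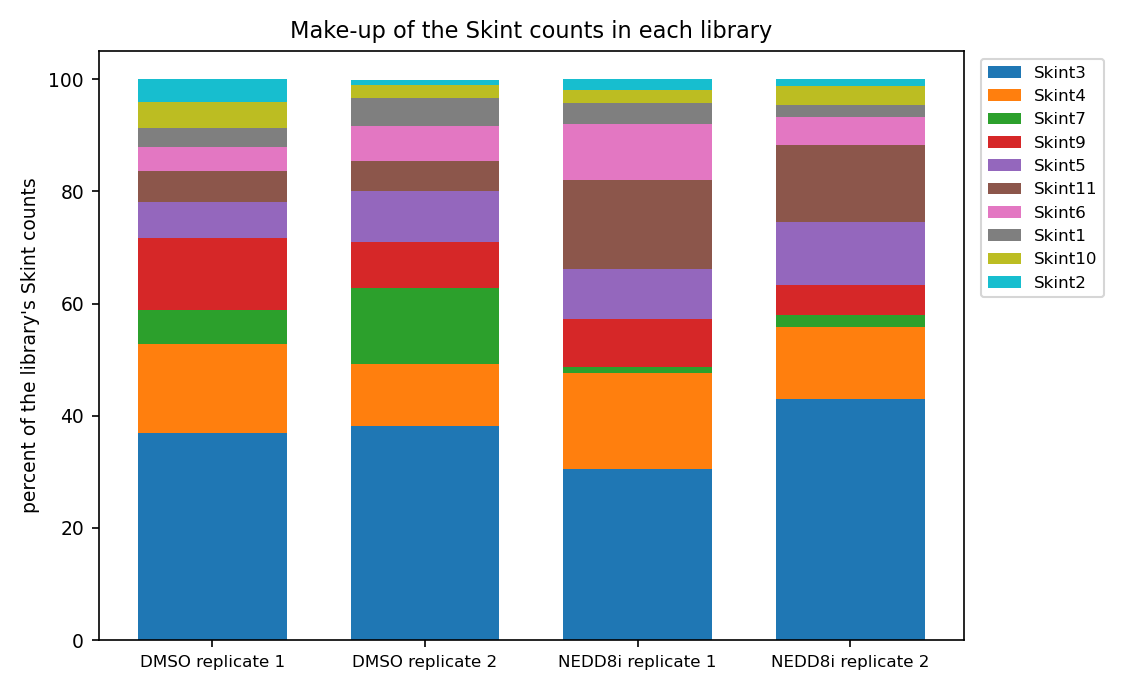
Percent of each library's Skint counts that came from each of the 10 members, stacked to 100% per library. Skint11 takes 5.4% to 5.52% in the DMSO libraries and 13.7% to 15.8% in the NEDD8i libraries, and Skint7 shrinks to 0.93% and 2.14%.

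The order of levels also differed between groups. With 1 tag expected per transcript in a 3′ library, CPM were first compared without dividing by length. In DMSO the order of mean CPM was Skint3, Skint4, Skint7, Skint9, Skint5, Skint11, Skint6, Skint1, Skint10 and Skint2. Only Skint3 was separate from its neighbour in that order. Every later neighbouring pair had overlapping library values. After NEDD8i the order was Skint3, Skint4, Skint11, Skint5, Skint6, Skint9, Skint1, Skint10, Skint2 and Skint7. Neighbours without overlap in it were Skint3 and Skint4, Skint11 and Skint5, Skint9 and Skint1, and Skint10 and Skint2. Per kilobase of deposited exon length, Skint3 (20.7 CPM per kb) and Skint9 (15.7) led in DMSO, whereas after NEDD8i Skint11 (8.69) and Skint3 (7.88) did.

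Replicates of 1 group did not move as a block. In DMSO, Skint7, Skint6, Skint5, Skint1, Skint3 and Skint11 were higher in replicate 2, with ratios of replicate 1 to 2 from 0.328 to 0.746, and Skint4, Skint9, Skint10 and Skint2 were higher in replicate 1, with ratios from 1.03 to 3.1. In NEDD8i the ratios of replicate 2 to 1 ran from 0.521 for Skint6 to 2.42 for Skint7. On a log scale the spread within a group was thus up to about the size of the difference between groups for Skint2, Skint5 and Skint6, and clearly smaller for Skint3, Skint4, Skint9 and Skint7.

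Position within the cluster went with the size of the difference, a pattern seen only after the values were known. From Skint7 at one end to Skint11 at the other, the log2 fold changes of the 10 members had a Spearman correlation of 0.79 and a Pearson correlation of 0.71 with gene position. This is a description across 10 neighbouring genes that share the same 4 libraries and are partly copies of one another. From 1000000 bases before the cluster to 1000000 bases after it, the cluster included, lay 45 genes that are not Skint genes. Of these, 7 had enough counts to be tested, all outside the cluster. None passed the threshold in edgeR (0 higher, 0 lower), against 0.782% of all genes. At an unadjusted p under 0.05 there were 4 of 7, where 16.5% of all genes passed that limit, and DESeq2 and limma-voom called 0. Without DMSO replicate 2, 1 passed. The 3 tested genes before the cluster, Bend5, Spata6 and Slc5a9, had negative log2 fold changes, and the 4 after it, Trabd2b, Cmpk1, Stil and Pdzk1ip1, positive ones, except that Stil (0.09, SE 0.73) turned to -0.11 with library sizes without TMM.

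Of these neighbours, Slc5a9, a sodium-coupled sugar transporter next to Skint8, was counted 30 and 36 times in the DMSO libraries and 17 and 18 times in the NEDD8i libraries, which gave a log2 difference of -1.33 (SE 0.53). It was named after its values were seen. Beyond Skint11, Pdzk1ip1, a small membrane protein gene, was read 177 and 185 times with DMSO and 461 and 474 times with NEDD8i (0.96, SE 0.29), and Cmpk1, a pyrimidine nucleotide kinase gene, 192 and 141 against 294 and 456 (0.78, SE 0.31). The groups of all 3 genes did not overlap on the CPM scale. Over the 17 Skint and neighbouring genes tested, the Spearman correlation of position with log2 fold change was 0.70.

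**Figure D3:**
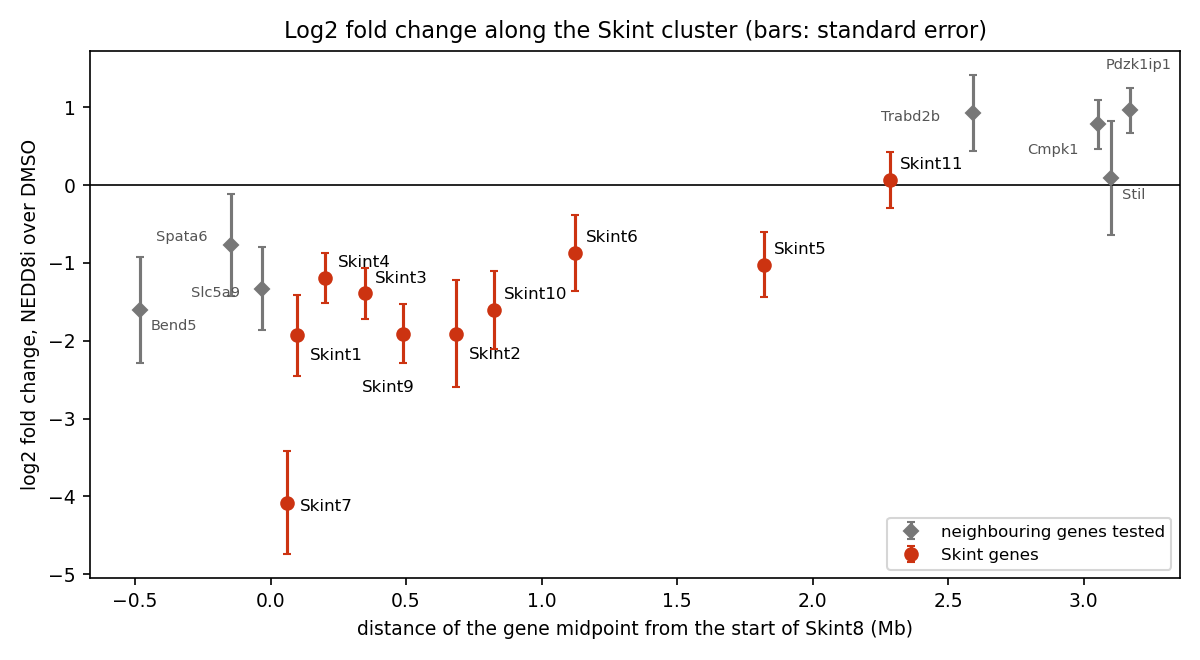
Log2 fold change of NEDD8i over DMSO (points, with bars of 1 standard error) of the 10 Skint genes and the 7 tested neighbouring genes, against the distance of the gene midpoint from the start of Skint8 in Mb. Skint7 has the lowest value (-4.08) and Skint11 stands at 0.07. Between them the values do not rise steadily, with Skint4 at -1.19 and Skint9, further along, at -1.91. The 4 genes beyond Skint11 are positive, of which Stil turns negative (-0.11) with library sizes without TMM.

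Skint genes are transcribed in keratinocytes, so their counts were set against keratinocyte transcripts of the same library. Per 100 counts of 8 basal epidermis genes (Krt5, Krt14, Krt15, Trp63, Itga6, Itgb4, Col17a1 and Dst) there were 5.47 and 3.82 Skint counts in DMSO and 1.5 and 1.78 after NEDD8i. Per 100 counts of 17 spinous and granular genes there were 2.05 and 1.46, against 0.602 and 0.847. On both scales the NEDD8i libraries lay below the DMSO libraries for the family sum and for 9 of 10 members, all except Skint11. The same held for 19.8% of all genes on the basal scale and 12.8% on the spinous scale. Skint6, which overlapped on the CPM scale, had 23.2 and 23.4 counts per 10000 basal counts in DMSO and 15.1 and 8.9 after NEDD8i. Skint1 had 19.2 and 18.9 against 5.57 and 3.81. The basal and spinous sums overlapped between groups (3270 and 6420 against 5350 and 4730 CPM for the basal list). The spinous sum was carried by Lgals7 and Krt10. Some granular genes of that list stood lower with the Skint genes and others did not, as given next.

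Within those lists, 0 of 8 basal genes passed (0 at an unadjusted p under 0.05, and 0 in DESeq2 and in limma-voom), with a median log2 fold change of 0.08. The median was -0.19 without DMSO replicate 1 and 0.71 without DMSO replicate 2. Of 16 spinous and granular genes tested, 0 rose and 2 fell, against 0.667% and 0.114% of all genes. At an unadjusted p under 0.05 there were 7, all lower, against 7.86% of all genes. The 2 past the adjusted threshold were Lor, which encodes loricrin of the cornified envelope (340 and 111 CPM against 24.7 and 29.7), and Flg2, which encodes filaggrin 2 (161 and 90.9 against 6.58 and 12.9). Flg, Hrnr and Calml3, late differentiation genes that did not pass, also lay lower without overlap, at 19.7%, 29.5% and 32.1% of the DMSO mean, beside 38.7% for the Skint sum. These 3 were picked with their values in view. Of the 16 genes tested, 11 had a negative and 5 a positive log2 fold change. Ivl and Dsg1b lay higher without overlap, at 156% and 132% of the DMSO mean. The list's median was -0.60, -1.0 without DMSO replicate 1 and -0.20 without DMSO replicate 2. Calls in it varied with the library left out, as they did over all genes. They were fewest when a NEDD8i library was left out and most when a DMSO library was.

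Transcripts of the T cells that Skint proteins address gave no call in either direction. Of 20 listed markers of dendritic epidermal T cells, 18 were in the table and 15 were tested, and none passed in edgeR (0 higher and 0 lower). At an unadjusted p under 0.05 there was 1 of 15, beside 16.5% of all genes, and DESeq2 and limma-voom called 0. That gene, Sema4d, which encodes CD100, lay higher without overlap (1.86 and 2.17 CPM in DMSO against 4.59 and 6.25). It was named after its values were seen. The list's median log2 fold change was -0.43, with 12 negative and 3 positive values, -0.07 without DMSO replicate 1 and -0.60 without DMSO replicate 2. Calls in this list varied with the library left out, as they did over all genes. Summed over the list, the libraries had 114 and 89.3 CPM in DMSO and 91.2 and 66.9 CPM after NEDD8i, which overlap.

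The delta chain constant gene Trdc, which defines gamma delta T cells, held 56 and 25 counts under DMSO and 44 and 27 under NEDD8i (log2 fold change -0.53, SE 0.50). The signalling chain Cd247 was at 6.86 and 7.24 CPM against 4.97 and 3.72, the surface glycoprotein gene Thy1 at 11.3 and 22.8 against 14.4 and 13.5, and the leukocyte phosphatase gene Ptprc at 15.3 and 12.9 against 12.2 and 11.1. Il2rb, a receptor chain for IL-2 and IL-15, was at 8.72 and 6.34 against 10.6 and 4.08, and Cd7 at 21.4 and 10.7 against 12.3 and 4.2. For Trdc, Thy1, Il2rb and Cd7 the groups overlapped. For Cd247 and Ptprc NEDD8i lay lower, by less than 1 on the log2 scale. Standard errors of the log2 fold changes in this list were 0.34 for Ptprc, the smallest, and larger for the other genes.

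Other keratinocyte genes that act on epidermal T cells were mixed. Of 19 listed, 16 were in the table and 10 were tested, and 0 passed in edgeR (3 at an unadjusted p under 0.05, beside 16.5% of all genes, and 0 in DESeq2 and in limma-voom), with a median of -0.30. The median of this list was -0.44 without DMSO replicate 1 and -0.09 without DMSO replicate 2. H60c, a ligand of the activating receptor NKG2D, was counted 118 and 293 times in the DMSO libraries and 109 and 145 times in the NEDD8i libraries, which gave a log2 difference of -1.17 (SE 0.49). Its CPM of 16.9 and 53.1 against 13.5 and 17.4 overlapped, with DMSO replicate 2 high, as for Skint7. The chemokine Ccl27a was at 37 and 34.8 CPM against 28.3 and 17.2, and Plxnb2, a ligand of the T cell protein CD100, at 21.7 and 19.2 against 14.4 and 14.1. Cdh1, encoding E-cadherin that anchors these T cells (475 and 513 against 658 and 603 CPM), and Cxadr, a ligand of the costimulatory receptor JAML (45.9 and 62.3 against 58.7 and 75.2), were not lower, and the groups of Cxadr overlapped. The aryl hydrocarbon receptor gene Ahr had a log2 fold change of -0.08. The 3 genes of the list at an unadjusted p under 0.05 were H60c, Il15 and Ccl20, the last 2 named after their values were seen. Il15, a growth factor for these cells, was read 20 and 13 times with DMSO and 3 and 6 times with NEDD8i (log2 fold change -2.22, SE 0.78). The chemokine gene Ccl20 lay the other way, at 21 and 11 counts against 50 and 63 (log2 fold change 1.45, SE 0.49).

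Butyrophilin genes elsewhere in the genome were close to undetected. Of 11 listed, 10 were in the table, 7 had 0 counts in all libraries and none was tested. A count of 0 allows 0.36 to 0.543 CPM per library at a floor of 3 counts. Their sum was 1, 2, 5 and 11 counts in library order, mostly Ermap. Of the butyrophilin-type genes looked at, the Skint genes thus held nearly all counts.

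Langerhans and dendritic cell genes, markers of the other immune cells of the epidermis, gave 0 of 10 past the threshold (3 at an unadjusted p under 0.05, beside 16.5% of all genes, and 0 in DESeq2 and in limma-voom) with a median of 0.50. Those 3 genes were all higher, and of the list's 10 values 8 were positive and 2 negative. The most abundant, Mfge8 and Cd74, had log2 fold changes of 0.75 and 0.82. Cd207, named after its values were seen, was at 17 and 4.53 CPM in DMSO against 38.5 and 26.1. Sebaceous gland genes gave 0 of 10 in edgeR (2 at an unadjusted p under 0.05, beside the same 16.5%, 1 in DESeq2 and 0 in limma-voom), with Scd1 at 0.19 and Fasn at -0.06. The 2 sebaceous genes at an unadjusted p under 0.05 were higher, and the list held 5 positive and 5 negative values. Of 7 dermal fibroblast genes tested, 1 rose and 0 fell, against 0.667% and 0.114% of all genes. The gene that rose was Dpt, from 7 and 3 counts to 56 and 73. The list's median was 2.35 (3.50 without DMSO replicate 1 and 2.37 without DMSO replicate 2). Of its values 6 of 7 were positive, where 50.1% of all genes were negative. At an unadjusted p under 0.05 there were 5, all higher. Of all genes 16.5% passed that limit in either direction and 7.86% as lower. Among those not past the adjusted threshold, Col1a1 was at 2.14 and 1.81 CPM in DMSO against 2.98 and 14.3, Col1a2 at 2 and 2.54 against 6.58 and 16.6, and Fbn1 at 1.86 and 1.81 against 4.72 and 14.4. These 3 genes, picked with their values in view, stood higher where the Skint genes stood lower. Dpt no longer passed with limma-voom, with library sizes without TMM or with the ribosomal RNA genes left out. It also did not pass when NEDD8i replicate 1 or NEDD8i replicate 2 was left out. When a DMSO library was left out, more genes of the list passed, as over all genes. All 17 anagen hair follicle genes had a negative log2 fold change (median -3.99, 0 past the threshold, 0 at an unadjusted p under 0.05, and 0 in DESeq2 and in limma-voom), with DMSO replicate 1 above every other library, and the median was 4.24 without it. The median of the Skint members was -1.38 without that library and -1.50 with it. Single members moved in either direction, Skint2 from -1.91 to -0.88 and Skint5 from -1.02 to -1.43. The part of hair follicle content in these values was not tested. Leaving out DMSO replicate 1 gave medians of 0.57 for sebaceous genes and 0.63 for Langerhans and dendritic genes. Leaving out DMSO replicate 2 gave -4.96 for hair follicle, 0.23 for sebaceous, and 0.26 for Langerhans and dendritic genes.

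**Figure D4:**
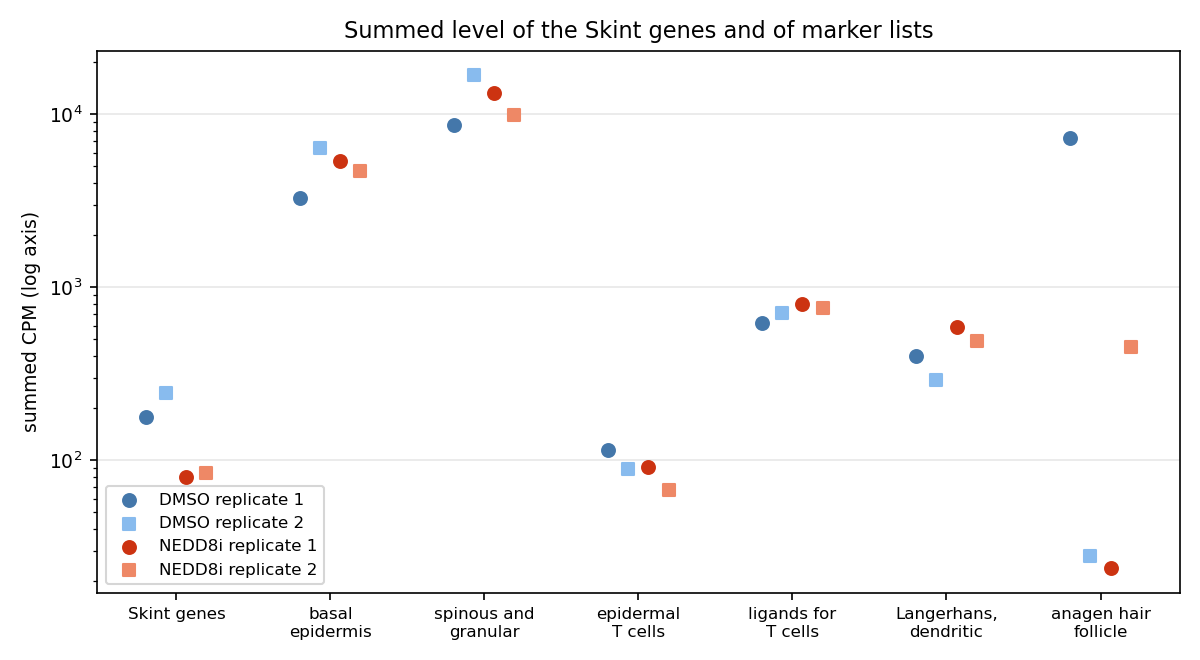
Summed CPM (log axis) of the Skint genes and of 6 marker lists in the 4 libraries; each point is 1 library. The Skint sum separates the groups, lower after NEDD8i (179 and 245 against 80.1 and 84.1 CPM). The Langerhans and dendritic sum (400 and 291 against 589 and 487 CPM) also separates them, higher after NEDD8i. So does the sum of ligands for T cells (622 and 714 against 796 and 757 CPM). The epidermal T cell, basal, and spinous and granular sums overlap, and the hair follicle sum is high in DMSO replicate 1 (7320 CPM).

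The genes whose levels followed the summed Skint counts most closely were found among 6418 other genes with a mean log2 CPM of at least 3, by the distance between their mean-centred log2 CPM over the 4 libraries. The closest was Ahnak2, a large scaffold protein gene, at a distance of 0.076. It held 1385 and 1463 counts under DMSO and 685 and 721 under NEDD8i. Next came Osbpl1a, a sterol-binding protein gene (0.109), the forkhead factor gene Foxn3 (0.12), Tfap2b, encoding an AP-2 transcription factor (0.121), and Pkib, encoding a protein kinase A inhibitor (0.137). Their log2 fold changes lay between -1.49 and -1.27, and none passed the threshold. With 4 libraries, likeness of this kind follows the group difference and the higher DMSO replicate 2 and is a description only.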

How the data were processed

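The authors deposited unnormalised counts of reads in a single table of 56953 genes, with exon coordinates and summed exon length, in the column layout of featureCounts per the file headers. STAR, featureCounts and DESeq2, and the builds GRCm38 and GRCm39, are named in the submitters' processing notes, and versions, strand setting and treatment of multi-mapping reads are not given in the sources used here. Of 11 Skint genes, 0 shared a start or end with GENCODE M21 on GRCm38, so deposited coordinates are taken to be GRCm39. The 4 columns were matched to samples by title and 0 sample columns were left unused. No pair of libraries was a duplicate (chi-square over genes, divided by its degrees of freedom, 15.5 to 43.1). Library totals were 5955627, 5639791, 8856572 and 8833217, and a floor of 3 counts is 0.36 to 0.543 CPM.

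Counts were fitted in R 4.3.3 with edgeR 4.0.16 (TMM, filterByExpr with a minimum count of 10 and total of 15, robust quasi-likelihood F test, group only), leaving 11388 genes, and adjusted by Benjamini-Hochberg at 0.05. Log2 CPM used a prior count of 2. The members, lists and tests were chosen with earlier results of these data known. Beside all Skint genes, the rule named for each list up to 4 genes past the threshold by smallest p or else the 2 most abundant, 6 most abundant besides for T cell and ligand lists, and the 5 closest patterns. Alternatives were DESeq2 1.42.0, limma-voom (limma 3.58.1), RLE factors, no TMM, no filter, a fixed filter (10 counts and a CPM above 1 in 2 libraries), no ribosomal RNA genes, a replicate block and leaving out each library in turn. The fit was tested on simulated data. Promoters are RefSeq's (GRCm38.p6), identities were computed with Biopython in Python, and no protein sequence is used here.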

Additional observations from a re-analysis of the deposited data

How the results depend on the processing

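The median log2 fold change of the Skint members was -1.71 with library sizes without TMM and -1.64 to -1.28 in fits leaving out 1 library, beside -1.50 in the fit reported. The summed level after NEDD8i was 38.7% of DMSO, 33.8% on plain library totals and 37.1% on totals without ribosomal RNA. Calls were less stable. Members called lower were 1 in the fit reported, 3 with DESeq2, 0 with limma-voom and 4 without a filter. Of all genes tested, the same settings called lower 13, 179 and 2 of 11388, and 318 of 23633 without a filter. Leaving out a DMSO library raised the number of members called, and leaving out a NEDD8i library lowered it, as for calls over all genes. Fits leaving out 1 library tested 11890 to 12700 genes. In such fits the lone library is assumed to vary like the other group. The cause of these shifts was not tested. Skint11 reversed to -0.13 with library sizes without TMM and to -0.14 without DMSO replicate 1, in a range of -0.14 to 0.31 leaving out 1 library.

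Over all genes, 89 passed in the fit reported, 415 with DESeq2, 27 with limma-voom, 47 with library sizes without TMM, 703 without a filter and 44 to 1358 leaving out 1 library. The split of all calls was 76 higher and 13 lower, 38 and 9 without TMM, 236 and 179 with DESeq2, and 385 and 318 without a filter. Spinous and granular genes called were 5 with DESeq2, 1 with limma-voom, 1 with library sizes without TMM, 5 without a filter and 1 to 8 leaving out 1 library. Dermal fibroblast genes called were 4 with DESeq2, 0 with limma-voom, 0 with library sizes without TMM, 0 without the ribosomal RNA genes, 5 without a filter and 0 to 7 leaving out 1 library. Sebaceous genes called were 1 with DESeq2, 1 without a filter and 0 to 2 leaving out 1 library. Without a filter 1 ligand gene and 1 Langerhans gene were called. Leaving out 1 library, counts ran from 0 to 17 for hair follicle, 0 to 3 for basal and for epidermal T cell genes, 0 to 4 for Langerhans genes, 0 to 1 for ligand genes and 0 to 1 for the cluster's neighbours.

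The labels share only replicate numbers and do not say whether these pair the samples. The deviations of same-numbered libraries correlated at -0.13 over genes. With 2 libraries per group this cannot decide the question, and the fit reported treated the samples as unpaired. With the replicate number as a block, 285 genes passed, 3 of them Skint members, with 4 spinous and granular genes. With the replicate block on crossed numbers, added after seeing the data, 483 genes passed, with 4 Skint members, 15 hair follicle, 4 fibroblast, 1 Langerhans, 1 sebaceous and 5 spinous and granular genes.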
